A study of Mus musculus with 24 samples.

Results

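Ret-Sema3d double null guts were compared with Sema3d null guts, so that loss of Ret was measured where Sema3d was already missing. The double null group held 6 guts from embryos homozygous for null alleles of both genes, and the Sema3d null group held 6 guts from embryos homozygous for the Sema3d null allele alone. Both groups therefore carried the Sema3d null allele and differed in Ret. The study also held 6 Ret null guts and 6 wildtype guts, which give the same loss of Ret with Sema3d present. All 24 embryos were taken at embryonic day 12.5; their strain is labelled C57BL/6, 129/Sv and C3H, and each genotype had 3 females and 3 males. Each library was made from the poly-A RNA of 1 whole gut. Of the 26260 genes in the authors' deposited table of all 24 guts, 12350 entered the comparison. These had a converged and bounded fit, a derivable error and reached a fitted level of 50 in at least 1 of the 2 groups.

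Ret encodes the receptor tyrosine kinase for the ligands of the GDNF family, which bind it together with a GFRA co-receptor. In the embryonic gut it is carried by the vagal neural crest cells that enter the foregut, divide, migrate towards the anus and form the neurons and glia of the enteric nervous system, and mice without Ret lack enteric ganglia along most of the gut. Sema3d encodes a secreted class 3 semaphorin, a guidance cue read by neuropilin and plexin receptors on growing axons and migrating crest cells.

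Values are given on 2 scales. A fitted level is the normalised count that the authors' model gives a genotype, averaged over the sexes, and it depends on transcript length, so that levels are not compared between genes. A log2 difference is double null minus Sema3d null, the sum of the Ret coefficient and the product coefficient in the authors' deposited table, followed after ± by an error derived from that table's deviances. A gene was called at a Benjamini-Hochberg adjusted p below 0.05 in a two-sided Wald test on that error. This test rests on the authors' DESeq fit across all genes and is a large-sample test. Values of single guts and the depth of each library were not analysed here, so whether guts of the 2 groups overlapped for a gene cannot be stated. The median log2 difference over the 12350 genes was 0.0045, and the median error was 0.0958.

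Ret itself, on chromosome 6 at 118151745 to 118197718 of GRCm38 (minus strand), had a fitted level of 1.15 in double null guts, against 1328 in Sema3d null guts. Its log2 difference was -10.17 ± 0.55 (adjusted p of 4.12e-73), an error for which the implied dispersion lay at its lower bound. Sema3d, on chromosome 5 at 12383385 to 12588948 (plus strand), had a fitted level of 396 in double null guts and 389 in Sema3d null guts (0.03 ± 0.10, adjusted p of 0.977). Sema3d transcripts thus remained countable in both groups at similar levels, beside 677 in Ret null guts and 815 in wildtype guts. The labels do not say which part of Sema3d the null allele lacks.

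Of the 12350 genes, 423 were called (3.43%). Among them 273 were lower in double null guts (2.21%) and 150 were higher (1.21%), and 2007 genes had an unadjusted p below 0.05. The 2 directions differed in size. The genes that fell had a median log2 difference of -0.87, which left 54.8% of the Sema3d null level, and 119 of them fell by more than 1 log2 unit. The genes that rose had a median of 0.32, or 125% of the Sema3d null level, and none of them passed 1 log2 unit. Of the genes that fell, 39 kept under 12.5% of the Sema3d null level and 154 kept over 50%. In whole-gut RNA, fewer cells of a type and less RNA per cell cannot be told apart.

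The largest decreases among protein-coding genes were led by Ret and genes of neurons and their precursors. Chrna3, the nicotinic acetylcholine receptor subunit of autonomic neurons, had a fitted level of 2.46 in double null guts, against 206 in Sema3d null guts (-6.39 ± 0.46). Tubb3, the tubulin of neurons, had 14.8 in double null guts, against 603 in Sema3d null guts (-5.34 ± 0.23). Elavl3, an RNA-binding protein of neurons, had 5.95 in double null guts, against 236 in Sema3d null guts (-5.31 ± 0.30). Tubb3 thus kept 2.46% and Elavl3 2.52% of the Sema3d null level. Others were Stmn3 (-5.89 ± 0.58), Dbh (-5.32 ± 0.38), Tlx2 (-5.25 ± 0.37), Ina (-5.23 ± 0.38), Prph (-4.79 ± 0.32), Chrnb4 (-4.67 ± 0.32), Phox2a (-4.63 ± 0.31), Cck (-4.49 ± 0.49) and Scn3b (-4.47 ± 0.30). Several stood in double null guts at only a few normalised counts, among them Stmn3 at 1.15 and Cck at 2.30, and the size of such a fold rests on few reads.

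**Figure D1:**
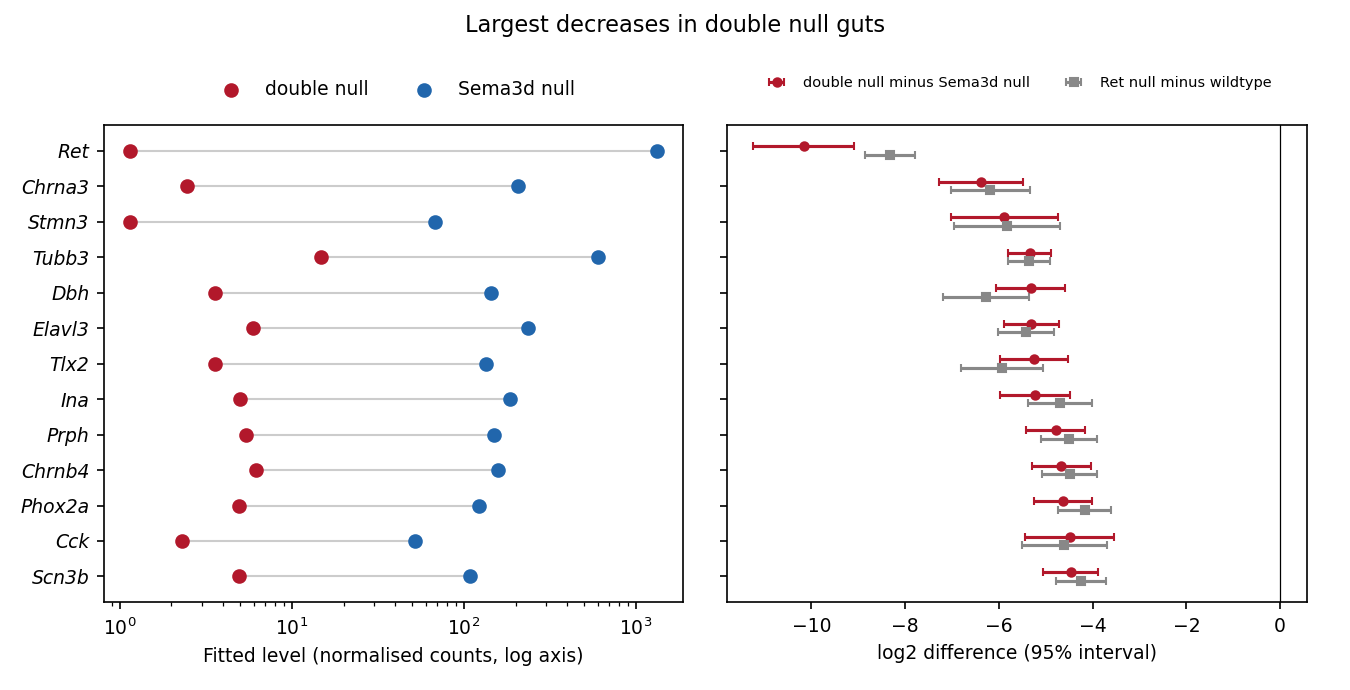
Left, fitted levels (normalised counts, log axis) of 13 of the largest decreases in double null guts (red) and Sema3d null guts (blue), from a model of 6 guts per genotype. Right, log2 differences with 95% intervals from the derived error, double null minus Sema3d null (red) and Ret null minus wildtype (grey); all lie between -10.17 and -4.17, and for Ret alone of the 13 do the 2 intervals not overlap.

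Promoters of 2 of these genes are shown because both hold ACAATG, 1 of the 5 short motifs searched. The sequences run 250 bases before to 50 bases after the start, from RefSeq on GRCm38.p6, with the motif in capitals, and CATTGT is its other strand. Chrna3 lies at chr9:55026513-55026812 (minus strand) and Tubb3 at chr8:123411303-123411602 (plus strand).
Chrna3: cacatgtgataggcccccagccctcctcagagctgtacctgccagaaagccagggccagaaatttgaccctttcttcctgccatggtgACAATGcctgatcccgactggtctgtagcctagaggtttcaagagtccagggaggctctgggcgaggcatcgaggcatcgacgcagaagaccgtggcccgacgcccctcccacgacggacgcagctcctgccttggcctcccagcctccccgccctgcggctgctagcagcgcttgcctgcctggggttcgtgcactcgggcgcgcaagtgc
Tubb3: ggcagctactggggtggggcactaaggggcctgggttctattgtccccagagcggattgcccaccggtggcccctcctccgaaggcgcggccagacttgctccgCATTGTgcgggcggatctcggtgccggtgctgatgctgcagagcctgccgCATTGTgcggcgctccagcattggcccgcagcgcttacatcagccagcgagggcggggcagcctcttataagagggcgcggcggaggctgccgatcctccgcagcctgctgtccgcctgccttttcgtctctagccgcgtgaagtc

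Chrna3 held the motif at 1 place and Tubb3 at 2. On either strand, ACAATG, a run of the kind SOX factors bind, stood in 12 of the 88 promoters held for genes that fell by more than 1 log2 unit (13.6%) and in 620 of the 9268 held for all genes tested (6.69%). ACAAAG, which differs from it in 1 letter, stood in 14 of the 88 (15.9%) and in 12.8% of all. The E-box CAGCTG stood in 14 of the 88 (15.9%) and in 14.5% of all, and the E-box CATATG in 1 of the 88 (1.14%) and in 1.34% of all. TAATTA, a homeobox core, stood in 0 of the 88 and in 2.07% of all. Over all genes that fell, ACAATG stood in 16 of 193 promoters (8.29%). A run of letters is not a bound site. Promoters of Ret, Tlx2 and Scn3b are named only.

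Most genes of the enteric crest and its progenitors fell. Of 24 listed genes 21 were at level, and 14 of them fell and none rose, where 2.21% of all genes fell and 1.21% rose. Their median log2 difference was -0.93, or -2.20 over the 16 that stand in no other list, and -1.36 over all 24 with no level minimum. A gene can reach the minimum through Sema3d null guts alone, which favours decreases in counts over genes at level. A gene that reaches it through double null guts alone favours increases in the same way. Medians without the minimum are given for the lists of crest, neurons, transmitters, synapses, channels and glia. Tlx2, a homeobox factor of enteric neuron precursors, had a fitted level of 3.57 in double null guts, against 135 in Sema3d null guts. Foxd3 and Sox10, which keep crest cells multipotent, and Insm1, a zinc-finger factor of neuron precursors, were chosen after their values were seen. Sox10 had 36.8 in double null guts, against 425 in Sema3d null guts (-3.53 ± 0.22, adjusted p of 1.12e-53). Foxd3 (-3.71 ± 0.24) and Insm1 (-2.61 ± 0.22) fell as well. Hand2, a helix-loop-helix factor of crest cells that gut mesenchyme also makes, had 1710 in double null guts, against 2265 in Sema3d null guts (-0.41 ± 0.08). Ednrb, the endothelin receptor of crest cells, had 823 in double null guts, against 1573 in Sema3d null guts (-0.93 ± 0.16, adjusted p of 4.31e-07). Ngfr, the low-affinity neurotrophin receptor that marks crest cells, had 224 in double null guts, against 396 in Sema3d null guts (-0.82 ± 0.11). The 7 listed genes not called included Gfra1 (-0.15 ± 0.13), Sox2 (-0.10 ± 0.16) and Zeb2 (-0.08 ± 0.09). Hand2 and these members were likewise chosen after their values were seen, apart from Gfra1.

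Pan-neuronal genes fell in 21 of 26 cases at level, of 36 listed, and none rose, where 2.21% of all genes fell and 1.21% rose. Their median log2 difference was -1.55, or 34.2% of the Sema3d null level, and all 26 lay below 0; without the level minimum the median over 36 was -1.22. Elavl4, an RNA-binding protein of young neurons, had 45.4 in double null guts, against 381 in Sema3d null guts (-3.07 ± 0.16). Celf3, another neuronal RNA-binding protein, had 16.4 in double null guts, against 268 in Sema3d null guts (-4.03 ± 0.22). Elavl4 and Celf3 reached the minimum through Sema3d null guts alone. Gap43, the growth cone protein, had 161 in double null guts, against 557 in Sema3d null guts (-1.79 ± 0.10), so that more of its RNA remained than of Elavl4 or Tubb3. The neurofilament genes Nefl (-1.38 ± 0.13) and Nefm (-1.20 ± 0.13), picked after their values were seen, also kept more than Tubb3 did. The 5 members not called had log2 differences from -0.52 to -0.09.

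Transmitter genes divided by gene. In the cholinergic list 5 of 6 genes at level fell, where 2.21% of all genes fell. Chrna3 and Chrnb4 were lowest, with Chrnb2 at -2.05 ± 0.23 and Ache, which breaks down acetylcholine, at -1.07 ± 0.26. Each of these named genes reached the minimum through Sema3d null guts alone. Over all 11 members without the minimum the median was -1.86. In the catecholamine list 3 of 5 fell, and the median over all 10 members without the minimum was -1.01. Dbh, the enzyme that makes noradrenaline, had 3.58 in double null guts, against 143 in Sema3d null guts, and Slc18a2, the vesicle transporter for monoamines, had 27.7 in double null guts, against 120 in Sema3d null guts (-2.11 ± 0.22). Ddc, the decarboxylase that is also made by gut epithelium, was not called (-0.17 ± 0.10, adjusted p of 0.58). Of the neuropeptide and nitric oxide list only 4 of 15 genes were at level, and 3 fell; each of the 3 reached the minimum through Sema3d null guts alone, and the median over the 13 bounded members was -1.07. Nos1, the neuronal nitric oxide synthase, had 8.19 in double null guts, against 128 in Sema3d null guts (-3.96 ± 0.36). Cartpt, a neuropeptide precursor of myenteric neurons, had 8.58 in double null guts, against 84.2 in Sema3d null guts (-3.29 ± 0.25). Penk, which encodes the enkephalin precursor, was not called (-0.07 ± 0.13). Synapse genes fell in 9 of 26 cases, led by Unc13a (-2.13 ± 0.23) and Syt1 (-2.11 ± 0.19). The synapse list median was -0.25, or -0.27 over all 30 members without the minimum. Channel genes fell in 4 of 14 cases, with Scn3b lowest and Cacna1b, a presynaptic calcium channel, at -1.32 ± 0.20. The channel list median was -0.02, or -0.03 over the 19 bounded members without the minimum. Dbh, Slc18a2, Unc13a, Scn3b and Cacna1b also reached the minimum through Sema3d null guts alone.

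Glia and Schwann lineage genes fell in 7 of 10 cases at level, of 20 listed, where 2.21% of all genes fell. Their median was -0.54, or 68.8% of the Sema3d null level, and -0.49 over all 20 without the level minimum. Cdh19, a cadherin of Schwann cell precursors, had 10.7 in double null guts, against 63.2 in Sema3d null guts (-2.56 ± 0.27). Cdh19 reached the minimum through Sema3d null guts alone. Erbb3, the neuregulin receptor of the glial lineage, had 499 in double null guts, against 784 in Sema3d null guts (-0.65 ± 0.11, adjusted p of 8.04e-07). Metrn, a secreted factor of glial progenitors, had 273 in double null guts, against 502 in Sema3d null guts (-0.88 ± 0.13). Gfap and S100b were under the level minimum.

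**Figure D2:**
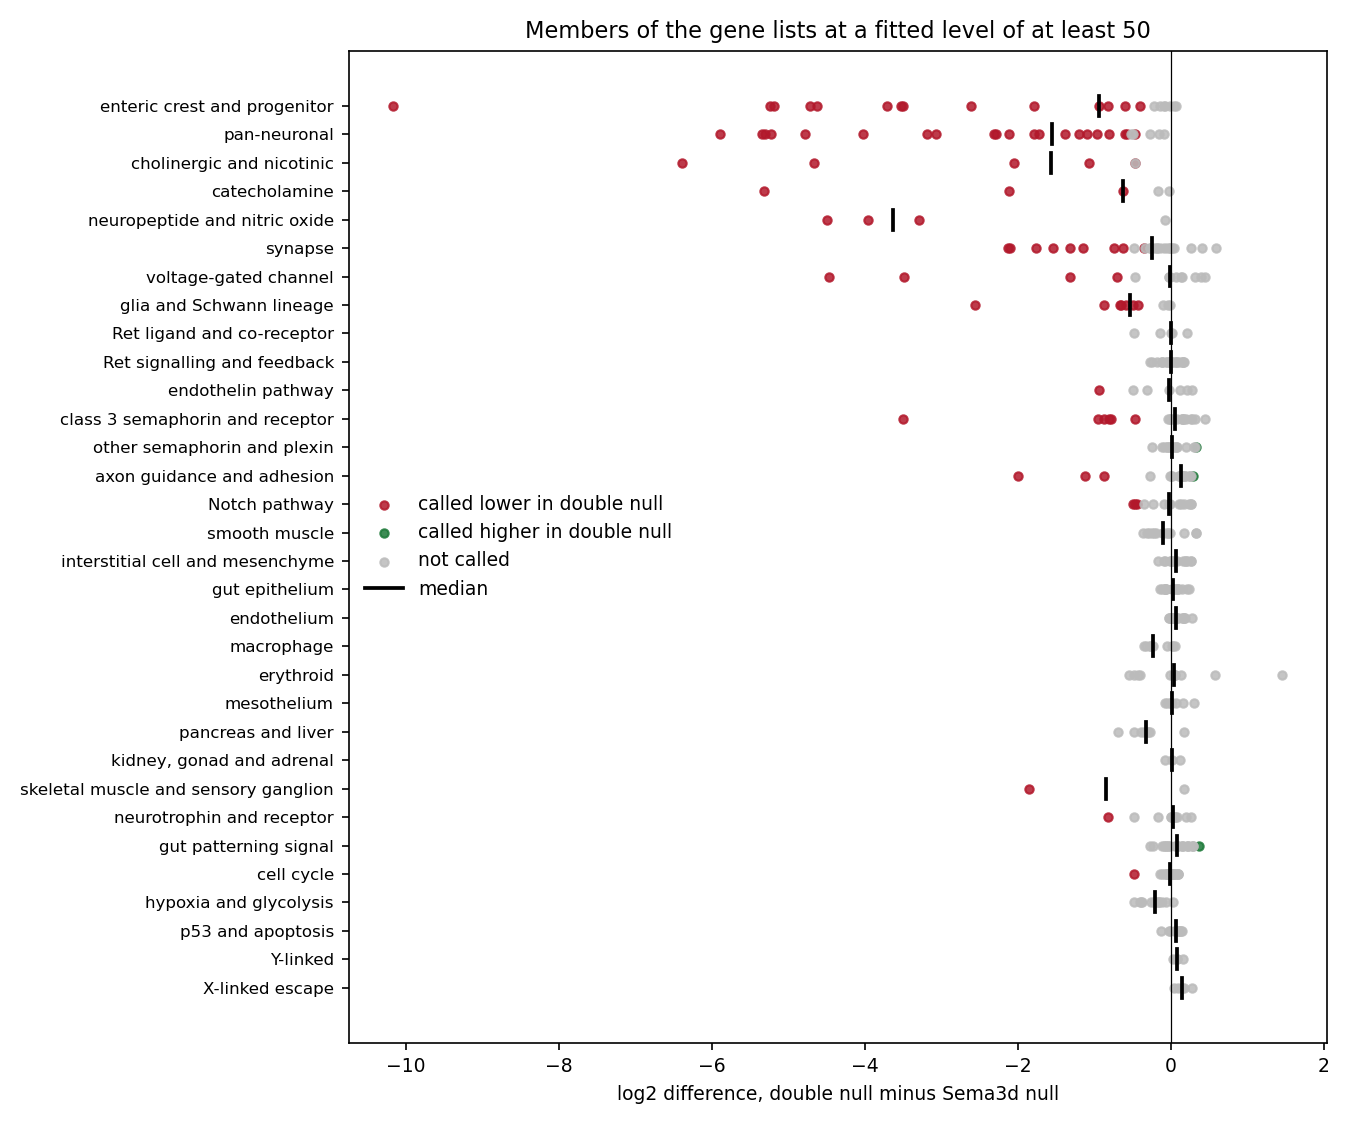
Log2 differences, double null minus Sema3d null, of each member at level in 32 gene lists, 1 point per gene (red, called lower; green, called higher; grey, not called; bar, list median). Lower calls gather in the crest, neuron, transmitter and glia lists. Their medians lie from -3.63 over 4 neuropeptide and nitric oxide genes to -0.54 over 10 glial genes (-1.07 and -0.49 without the level minimum). The synapse and channel lists, with 9 and 4 lower calls, have medians of -0.25 and -0.02. Lists of the other gut tissues hold no call, with medians from -0.23 for macrophages to 0.06 for mesenchyme. The pancreas and liver list has a median of -0.33.

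The ligands, co-receptors and signalling genes around Ret showed no call, where 3.43% of all genes were called. At that share lists of this size can hold none, so the absence of calls does not show that these genes were unchanged. Of 11 listed ligands and co-receptors 5 were at level, with a median of -0.01. Gdnf, the ligand made by gut mesenchyme, had 716 in double null guts and 622 in Sema3d null guts (0.20 ± 0.08, adjusted p of 0.25). Gfra2, the neurturin co-receptor, had 65.2 in double null guts and 90.7 in Sema3d null guts (-0.48 ± 0.16, adjusted p of 0.105). Between Ret null and wildtype guts both genes passed, Gdnf at 0.36 ± 0.08 and Gfra2 at -1.07 ± 0.17. The difference between the 2 losses of Ret did not pass for either gene in the authors' deposited table, with interaction adjusted p of 0.865 for Gdnf and 0.513 for Gfra2. Of 21 Ret signalling and feedback genes at level none was called, with a median of 0.0038 and a range from -0.28 to 0.17. Spry2 and Dusp6, feedback inhibitors of receptor tyrosine kinase signalling, were at -0.28 ± 0.10 and -0.24 ± 0.09, both with an adjusted p of 0.13. Both fell in Ret null guts against wildtype, with Spry2 at -0.43 ± 0.10 and Dusp6 at -0.50 ± 0.09, and had interaction adjusted p of 0.892 and 0.684 in the authors' deposited table.

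Among class 3 semaphorins and their receptors, the genes that fell were the plexin receptor Plxna4, adhesion partners and intracellular relays. The neuropilins and the other plexins of the list were not called, with log2 differences from -0.01 to 0.44. No ligand was called, but so few ligands can hold no call at the 3.43% called over all genes. All 20 listed genes were at level, 6 fell and none rose, where 2.21% of all genes fell and 1.21% rose. The list median was 0.05. L1cam, an adhesion molecule of axons and migrating crest that partners neuropilin, had 23.8 in double null guts, against 271 in Sema3d null guts (-3.51 ± 0.20). Plxna4, a plexin receptor of class 3 semaphorins, had 363 in double null guts, against 625 in Sema3d null guts (-0.78 ± 0.11, adjusted p of 3.14e-10). Dpysl3 and Dpysl5, of the collapsin response mediator family that relays semaphorin signals, fell by 0.81 ± 0.07 and 0.88 ± 0.12. Nrcam (-0.95 ± 0.17) and Crmp1 (-0.47 ± 0.08), picked after their values were seen, also fell. Nrp1, the neuropilin that other gut cells also carry, had 2016 in double null guts and 2036 in Sema3d null guts (-0.01 ± 0.08), and was likewise picked afterwards. L1cam, Dpysl3 and Crmp1 also stand in the crest or neuron lists.

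Axon guidance and adhesion genes fell in 3 of 20 cases at level and rose in 1, where 2.21% of all genes fell and 1.21% rose. Nfasc, the axonal neurofascin, had 71.9 in double null guts, against 286 in Sema3d null guts (-1.99 ± 0.15), and Chl1, an L1-type adhesion gene, had 63.8 in double null guts, against 139 in Sema3d null guts (-1.12 ± 0.19). Cntn1, a contactin of axons, fell by 0.88 ± 0.20, beside -0.06 ± 0.20 for Ret null minus wildtype, and the interaction adjusted p in the authors' deposited table was 0.328. Epha7, an ephrin receptor, rose by 0.29 ± 0.08, and Sema6d, a membrane semaphorin, by 0.33 ± 0.09. Notch pathway genes fell in 3 of 14 cases, with Mfng (-0.49 ± 0.12), Dll1 (-0.47 ± 0.12) and Hes6 (-0.44 ± 0.10). With the larger error of the interaction as an upper bound, Ache, Cntn1, Epha7, Sema6d, Mfng, Dll1, Hes6 and Hhip were not called. In the cell cycle list 1 of 20 fell, Ccnd1, the cyclin of early G1, at 1669 in double null guts and 2324 in Sema3d null guts (-0.48 ± 0.08, adjusted p of 3.71e-08). Eya1, a transcription cofactor placed in the list of skeletal muscle and sensory ganglia, had 41.0 in double null guts, against 149 in Sema3d null guts (-1.86 ± 0.15). Isl1, the only other member of that list at level, was not called, at 631 in double null guts and 561 in Sema3d null guts (0.17 ± 0.14). The defining muscle and ganglion genes Myod1, Myog, Neurod1 and Pou4f1 were under the level minimum. Of 23 gut patterning genes at level, Hhip, the hedgehog decoy receptor, alone was called (0.37 ± 0.11, adjusted p of 0.0426). At the 3.43% called over all genes, lists of such sizes can hold 1 call. The single calls in the cell cycle and patterning lists are thus no result about those lists.

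Lists of the other gut tissues held no call, where 3.43% of all genes were called. A list of such a size can hold none at that share, so this does not show that a tissue was unchanged. The lists without a call covered 14 smooth muscle genes, 14 of interstitial cells and mesenchyme, 17 of epithelium, 18 of endothelium, 9 of macrophages, 11 of erythroid cells and 8 of mesothelium. Their medians lay between -0.23 for macrophages and 0.06 for mesenchyme. Errors were wide for some, such as 0.37 for the smooth muscle gene Cnn1 and 1.15 for the globin gene Hba-a2, whose log2 difference was 1.45. The 8 pancreas and liver genes at level had a median of -0.33 with none called, and 13 hypoxia and glycolysis genes a median of -0.21 with none called. The labelled tissue was visible in Cdx2, the intestinal homeobox factor, at 293 in double null guts and 306 in Sema3d null guts. The 4 Y-linked genes lay between 0.03 and 0.16 in log2 difference. Cnn1 and Cdx2 were chosen after their values were seen.

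Loss of Ret without Sema3d was next set beside loss of Ret with Sema3d. The 2 contrasts share no library, although they come from 1 fit and 1 normalisation. Ret null minus wildtype, tested in the same way, called 311 genes lower (2.52%) and 23 higher (0.186%). Of the 273 genes that fell in double null guts, 217 also fell in Ret null guts, which is 79.5% of the 273 and 69.8% of the 311. None was called in the opposite direction. Over the 119 genes that fell by more than 1 log2 unit, the 2 log2 differences had a Pearson r of 0.957 and a Spearman rho of 0.943 across genes, which are not independent replicates and were chosen for their size in 1 of the contrasts. Over the 11927 genes not called, r was -0.03. Elavl3 was at -5.31 ± 0.30 against Sema3d null and -5.42 ± 0.31 for Ret null minus wildtype, Tubb3 at -5.34 ± 0.23 and -5.36 ± 0.23, and Sox10 at -3.53 ± 0.22 and -3.49 ± 0.22.

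**Figure D3:**
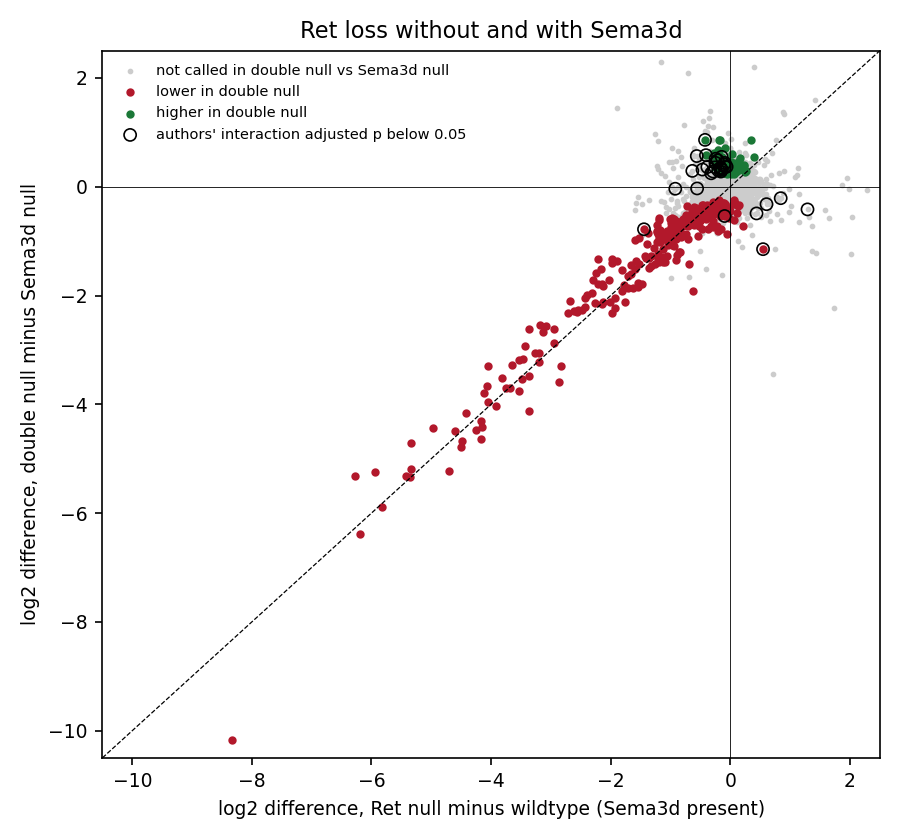
Each point is 1 of the 12350 genes; vertical axis, log2 difference of double null minus Sema3d null guts; horizontal axis, log2 difference of Ret null minus wildtype guts; dashed line, equal values. Genes that fell by more than 1 log2 unit (red) lie along the line (r = 0.957), genes that rose (green) lie above 0 on the vertical axis and on both sides of 0 on the horizontal axis, and rings mark the 32 genes with an interaction adjusted p below 0.05 in the authors' deposited table.

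The product coefficient of the authors' deposited table tests the difference between the 2 losses of Ret directly. Of the 119 genes that fell by more than 1 log2 unit, 66 had a product above 0, the median product was 0.06, and 12 had an unadjusted p below 0.05, beside 10.4% of all genes. Only Rpl27-ps3 of the 119 had an adjusted p below 0.05. Ret had the product of largest size among them, -1.83 ± 0.60, with an adjusted p of 0.263 in the authors' deposited table; its fitted level was 1.15 in double null guts and 4.72 in Ret null guts, both near the bottom of the count scale. Plxna4 fell less without Sema3d than with it. It kept 58.2% of the Sema3d null level in double null guts (-0.78 ± 0.11) and 36.8% of the wildtype level in Ret null guts (-1.44 ± 0.11), and the product was 0.66 ± 0.16 with an adjusted p of 0.0265 in the authors' deposited table. Its longest annotated transcript measured 12877 bases, and among the 819 genes above 8000 bases the product was above 0 for 91.5% with a median of 0.20.

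Over the crest list the product was above 0 for 14 of 21 genes at level, beside 49.7% of all genes, with a median of 0.14, and none had an interaction adjusted p below 0.05 in the authors' deposited table. Genes lay on both sides, and those named here were picked after their values were seen. Phox2a was at -4.63 ± 0.31 against Sema3d null and -4.17 ± 0.29 for Ret null minus wildtype, and Hoxb5 at -0.60 ± 0.11 and -0.41 ± 0.11. Insm1 was at -2.61 ± 0.22 against Sema3d null and -3.36 ± 0.23 for Ret null minus wildtype (interaction adjusted p of 0.604 in the authors' deposited table), and Ngfr at -0.82 ± 0.11 and -1.23 ± 0.11 (0.505 in the authors' deposited table). Zeb2, a zinc-finger factor of the crest, was not called against Sema3d null (-0.08 ± 0.09) and fell in Ret null guts (-0.50 ± 0.09), with an interaction adjusted p of 0.186 in the authors' deposited table. A difference that misses the threshold does not show that the 2 losses of Ret act alike on these genes.

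The increases were small. The largest increase among protein-coding genes was that of Oprd1, the delta opioid receptor, at 73.2 in double null guts, against 40.4 in Sema3d null guts (0.86 ± 0.26, adjusted p of 0.0488). Il17re, an interleukin-17 receptor chain, had 74.0 in double null guts, against 41.0 in Sema3d null guts (0.85 ± 0.20). Gucy1a2, a subunit of the nitric oxide receptor guanylate cyclase, had 189 in double null guts, against 120 in Sema3d null guts (0.65 ± 0.16). The other 12 were Ppp1r21 (0.72 ± 0.21), Nkain3 (0.67 ± 0.17), Prrt2 (0.62 ± 0.19), Zfp729a (0.58 ± 0.17), Rassf9 (0.55 ± 0.15), Klhl11 (0.55 ± 0.10), Gxylt2 (0.52 ± 0.12), Prex2 (0.51 ± 0.13), Klf12 (0.49 ± 0.14), Zfp369 (0.49 ± 0.12), Cep85l (0.47 ± 0.14) and Mrpl35 (0.47 ± 0.10). Of these increases, Oprd1, Il17re and Nkain3 (45.5 in Sema3d null guts) reached the level minimum through double null guts alone. With the error of the interaction as an upper bound, 3 genes were called higher in all, and Klhl11 was the only 1 of the 15 among the calls.

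**Figure D4:**
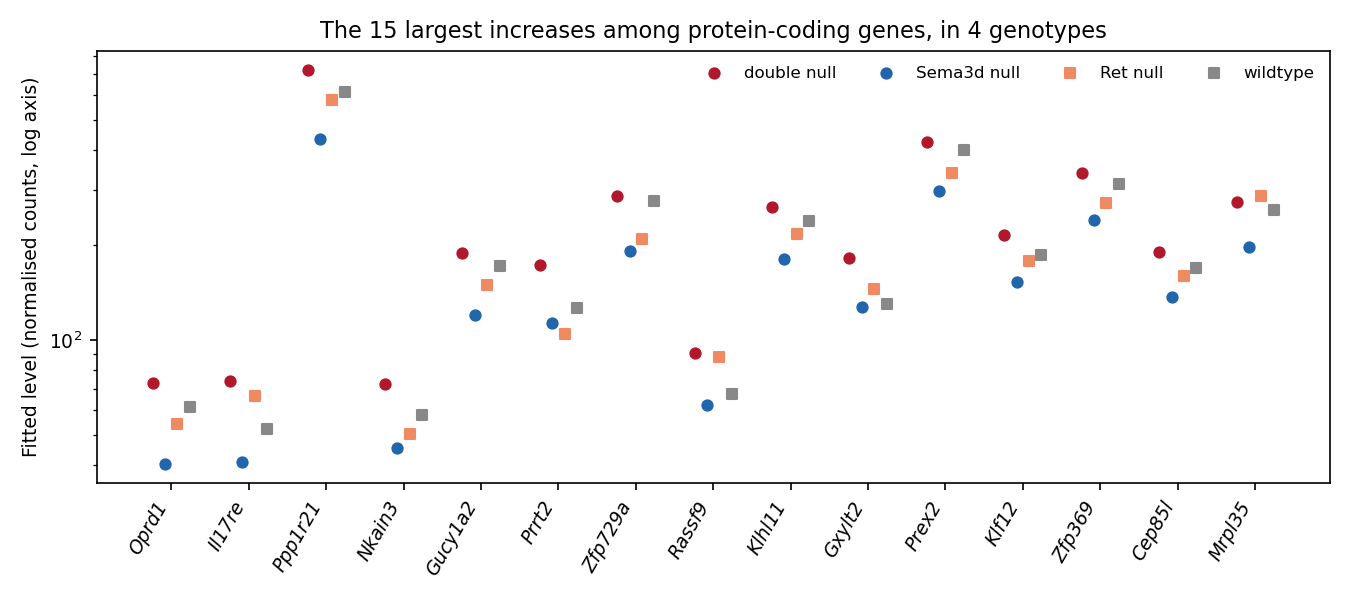
Fitted levels (normalised counts, log axis) of the 15 largest increases among protein-coding genes in double null, Sema3d null, Ret null and wildtype guts, each from a model of 6 guts per genotype. For every gene but Prrt2 the Sema3d null level is the lowest of the 4; Prrt2 is lowest in Ret null guts.

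All 150 genes that rose had a Sema3d null level below the wildtype level. Their median was 0.08 for double null minus wildtype and -0.25 for Sema3d null minus wildtype. These 2 contrasts share guts with the comparison the genes were called in. For Ret null minus wildtype, which shares none, the median was -0.04. For Ret null minus wildtype 55 of the 150 lay above 0 (36.7%), beside 54.0% of all genes, and none was called higher, beside 0.186% of all genes. Of the 150, 17 had an interaction adjusted p below 0.05 by the authors' deposited table, a measure that holds the same difference the genes were called on.

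The increases moved with transcript length. The longest annotated transcript of the genes that rose had a median of 7049 bases, against 3740 bases for the genes that fell and 3570 bases for all genes. The median log2 difference was -0.16 over 510 genes with transcripts up to 1000 bases, -0.02 over 4924 genes from 2000 to 4000 bases and 0.15 over 819 genes above 8000 bases. Genes called higher made up 0% of the shortest class and 6.72% of the longest, while genes called lower made up 2.55% and 3.42% of the same classes. Sema3d null minus wildtype ran the other way, with medians of 0.13 in the shortest class and -0.13 in the longest. It holds the same Sema3d null guts with opposite sign, so its opposite run is not a separate observation. Double null minus wildtype was nearly level, at -0.01 and 0.03. With the running median over transcript length taken off, a setting added after the data were seen, 44 genes were called higher, 30 of them among the 150, and 281 were called lower, 248 of them among the 273. Oprd1, Prrt2, Zfp729a, Rassf9, Prex2, Klf12, Cep85l, Sema6d, Epha7 and Hhip were then no longer called.

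**Figure D5:**
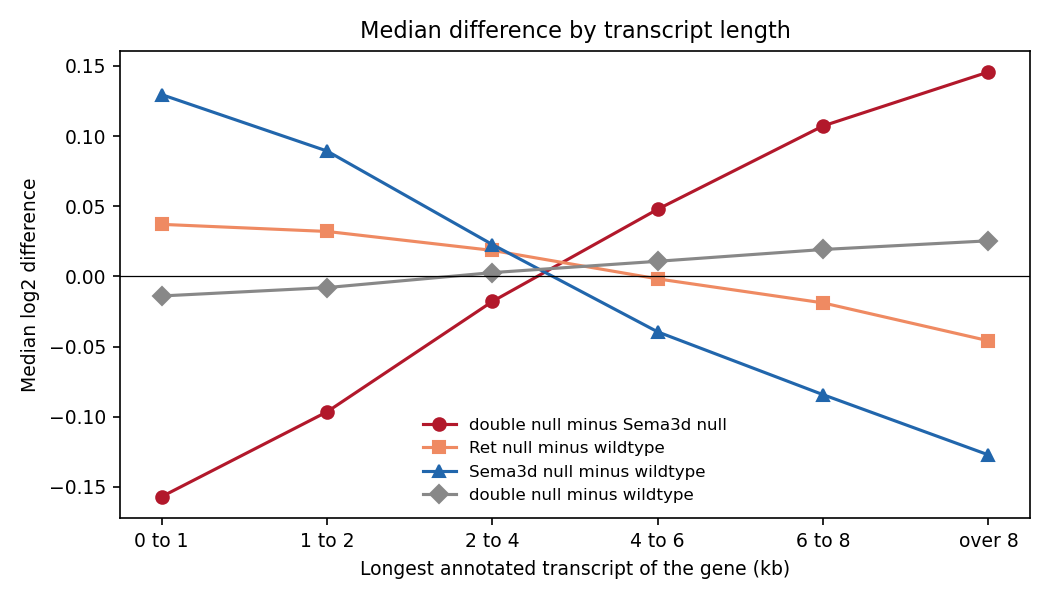
Median log2 difference (vertical axis) of genes in 6 classes of longest annotated transcript (horizontal axis, kb) for 4 contrasts of genotypes with 6 guts each. Double null minus Sema3d null climbs with length between -0.16 and 0.15, Sema3d null minus wildtype descends between 0.13 and -0.13, and the other contrasts stay within 0.05 of 0. The climbing and the descending contrast hold the same Sema3d null guts with opposite sign.

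Over all genes at level, 32 had an interaction adjusted p below 0.05 in the authors' deposited table (0.259%), 26 with a product above 0 (0.211%) and 6 below 0 (0.0486%). Of the 32, 17 rose and 3 fell in double null against Sema3d null guts. By the sign of the estimates, called or not, 23 were higher there and lower in Ret null against wildtype guts. Opposite signs are favoured among such genes, since the product is the former difference minus the latter. Lyst, a regulator of lysosome traffic, was at 369 in double null guts and 378 in Sema3d null guts (-0.04 ± 0.13), against 289 in Ret null guts and 546 in wildtype guts (-0.92 ± 0.13), with an interaction adjusted p of 0.00329 in the authors' deposited table. Col12a1, a fibril-associated collagen, had log2 differences of 0.36 ± 0.12 and -0.38 ± 0.12 in the same order, neither of them called, with an interaction adjusted p of 0.011 in the authors' deposited table. Pdia4, a protein disulfide isomerase of the endoplasmic reticulum, rose by 0.34 ± 0.08, was at -0.16 ± 0.08 for Ret null minus wildtype, and had an interaction adjusted p of 0.00542 in the authors' deposited table. The longest annotated transcripts of Lyst and Col12a1 measured 13181 and 11511 bases, and that of Pdia4 2399 bases.

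Genes near Ret were examined because flanking DNA of the allele's strain of origin travels with it. Within 20 Mb of Ret on chromosome 6, 10 of 186 genes were called (5.38%), 5 of them lower and 5 higher, beside 3.39% of the 12163 genes elsewhere. Those higher were Il17re, Gxylt2, Mbd4, Ankrd26 and Ccnd2, and Chl1 was among those lower; Mbd4, Ankrd26 and Ccnd2 were named after their values were seen. Within 20 Mb of Sema3d on chromosome 5, where both groups carry the same allele, 1 of 132 genes was called (0.758%), Dpysl5. The part of flanking strain DNA in these calls was not tested.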

How the data were processed

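Poly-A RNA of 24 mouse guts was sequenced as stranded libraries with 100 bp paired reads, per the labels' protocols. The submitters' processing notes list DESeq 1.24.0, RSEM 1.2.31, STAR, Trimmomatic 0.36 and FastQC 0.11.5, without roles, and the GRCm38 (mm10) build. The authors deposited per gene, over 24 guts, log2 coefficients of intercept, sex, Ret, Sema3d and the product of Ret and Sema3d, and, per the file headers, deviances of reduced and full models, here a score of fit without fixed range. The p-values that the authors deposited for this 24-gut fit test the product only. They equalled the chi-square tail of the deviance difference (1 degree of freedom) within 4.91e-09. The authors also deposited p-values for each null genotype against wildtype, from fits of 12 guts, and the calls made here do not use them. The headers name no log base; base 2 gave fitted levels that sum to 11.9, in units of 1e6 counts, and the natural base 452 in the same units, so base 2 was used. Coefficients beyond 15 on the log2 scale, models that did not converge and genes whose error could not be derived were left out, which removed 14 genes at level, Alb, Afp and C1qb among them.

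The error of double null minus Sema3d null was derived. For each gene the dispersion was solved for which a model of 4 genotypes and sex with 3 guts per genotype and sex gives the product the error |product| over the root of the deviance difference, and the same dispersion then gave the contrast's error. This takes library sizes as equal. Wald p-values were adjusted over 22399 genes (Python 3.11.15, scipy 1.17.1, numpy 2.4.6). No count test was run, since no table used here holds counts. The p-values rest on the dispersion implied by the authors' fit and not on values of single guts. They take the guts as independent, and nothing in the labels says whether embryos shared litters.

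Named genes are Ret, Sema3d, the 15 protein-coding genes that rose most, the 15 that fell most, up to 4 members with the smallest p in each of 32 gene lists, and the 10 smallest interaction p. Some genes that this rule names are not reported here, and any other gene is said to be picked after its values were seen. The comparison and the lists were chosen with earlier results of these data known. Alternatives were the error, level minimum, threshold, centring, bound and 12-gut coefficients. Transcript lengths came from GENCODE M21 (99.4% of genes matched), and promoters from RefSeq.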

Additional observations from a re-analysis of the deposited data

Results flagged for a closer look

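Each of the following genes was singled out because the change with loss of Ret differed between guts without Sema3d and guts with Sema3d, by the interaction test in the authors' deposited table. There were 32 such genes at level, and the 10 with the smallest p are given by their product coefficient, the log2 difference without Sema3d minus that with Sema3d. Above 0 were Gm9581 at 1.28, Gm38372 at 1.12, Lyst at 0.88, Col12a1 at 0.74, Klhl11 at 0.69, Farp2 at 0.69, Samd5 at 0.57 and Pdia4 at 0.50. Klhl11, a substrate adaptor of a cullin ubiquitin ligase, had a fitted level of 265 in double null guts, against 181 in Sema3d null guts, and 217 in Ret null guts, against 239 in wildtype guts. Farp2, a guanine exchange factor that acts downstream of semaphorin receptors, had 220 in double null guts, against 162 in Sema3d null guts, and 186 in Ret null guts, against 221 in wildtype guts. Below 0 were Rpl27-ps3 at -1.70 and Gm17383 at -1.71, a ribosomal protein copy and a pseudogene, whose reads may be shared with near-identical copies and which are therefore uncertain.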

How the results depend on the processing

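With the error of the interaction itself as an upper bound, 168 genes were called, 165 lower and 3 higher; with the error from the authors' 12-gut deviances, an alternative added after the data were seen, 172 were called, 169 lower and 3 higher. Both of these errors are wider than that of the contrast by construction. The first spans all genotypes, and the second counts the wildtype guts that the 12-gut fits share in each fit. Nearly all increases thus were called with the derived error only, and a call lost under a wider error does not show that an increase is absent. A level minimum of 200 left 240 calls, 106 of them lower, and a threshold of 0.01 left 262, 41 of them higher. Taking off the running median over transcript length, also added later, left 44 higher. The other settings kept the counts within 1.5 times of 423, 273, 150 and 32. Of 154 named genes, 26 lost their call under the upper bound and 10 without the length trend. Oprd1 lost its call with the median over genes taken off, and none reversed. The 154 include genes that were not called and so had no call to lose. Without genes shared with other lists, the crest list median was -2.20 and the neuron list median -1.76. The cause of these shifts was not tested, apart from fewer genes being tested at a higher minimum. No paired analysis was possible because the deposited coefficients hold no value per gut, and for the same reason no gut could be left out. Depth per library is unknown from these tables.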

Other observations

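Genes outside the lists and outside the 15 largest decreases also fell by more than 1 log2 unit, and the following were picked after their values were seen. Dlx1 and Dlx2, homeobox factors, stood at -4.30 and -4.41 in log2 difference, and Mab21l1, a neural developmental gene, at -4.44. Srrm4, a splicing regulator of neuron-specific exons, was at -4.15, Mapk10, the neuronal JNK kinase, at -3.23 and Celsr3, an atypical cadherin of axon tracts, at -3.17. Lgi4, a secreted factor of the glial lineage, was at -2.26, with 16.7 in double null guts, against 80.0 in Sema3d null guts.

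The genes with the interaction in the authors' deposited table also included Rpl29, a ribosomal protein gene, and Tuba1c, a tubulin gene, both with products below 0 and both picked after their values were seen. Ribosomal protein genes have many near-identical copies, so the Rpl29 values are uncertain. Rpl29 had 4006 in double null guts and 4636 in Sema3d null guts, and 5172 in Ret null guts, against 2883 in wildtype guts.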
